A study of Saccharomyces cerevisiae with 12 samples.

Results

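Glucose enters Saccharomyces cerevisiae through the hexose transporters of the HXT family, and 10 genes of that system were followed in NaHS-treated and untreated cultures: the transporters HXT1 to HXT7, the glucose sensors SNF3 and RGT2, and MTH1, which keeps the transporter genes off when glucose is scarce. They are defined by a list of systematic identifiers, and all 10 had a row in both deposited tables, among 7126 named genes in each. The cells were strain BY4742, a haploid laboratory yeast, grown in synthetic dextrose complete medium, and NaHS (sodium hydrosulfide) served as the source of hydrogen sulfide. The 4 groups of 3 libraries were early control and early NaHS (before 72 h after inoculation) and late control and late NaHS (after 72 h), all of the same strain and medium. The labels give neither a dose of NaHS nor sampling hours. They do not say that replicate libraries stem from different cultures, so p-values measure only the spread between these libraries, which may be technical.

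Hxt proteins carry glucose down its gradient, and yeast changes which of them it makes as the sugar runs out. Hxt1 and Hxt3 are low-affinity carriers used in high glucose, Hxt2, Hxt4, Hxt6 and Hxt7 work at lower glucose, and Hxt5 is known from slow growth and starvation. Snf3 and Rgt2 resemble transporters but act as receptors for low and high glucose, and their signal leads to the loss of Mth1, which releases the repressor Rgt1 from HXT promoters. A second repressor, Mig1, acts in high glucose on several HXT genes and on MTH1.

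The words that these factors and the stress regulators Msn2 and Msn4 are known to bind were searched in the 1000 bases before each start codon in the R64 reference sequence (RefSeq), on both strands. Rgt1 was searched as CGGANNA, Mig1 by its known core words (a run of 4 G after CC, CT, GC or GT), and the stress response element (STRE) as AGGGG. Of 5996 coding genes with a full window, 66.5% held at least 1 Rgt1 word, 41.8% a Mig1 word and 55.0% a STRE, so a single match is common. Words of different motifs may overlap, and each was counted. HXT3 held 9 Rgt1 words and HXT1 held 8, counts reached by 1 and 2 of the 5996 genes, themselves included. MTH1 and HXT5 held 4 Rgt1 words each (3.49% of genes had as many), HXT2, HXT4 and HXT6 held 3 (11.2%), HXT7 held 2, and SNF3 and RGT2 held none. HXT2 and HXT4 each held 4 Mig1 words (0.834% of genes had as many), and HXT6 held 5 STRE words (0.634%). A match is a description of letters and shows no binding.

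The 200-base stretches below are shown because the transporters they precede carried the changes in level described further on. Each holds as many matches of 1 motif as any other such stretch of its window, and the one nearest the start codon is shown where several tie. They are read 5′ to 3′ on the gene's strand, with the matches in capitals. For HXT1 (chrVIII:292910-293109, minus strand), HXT3 (chrIV:1164999-1165198, minus strand) and HXT4 (chrVIII:289037-289236, minus strand) the capitals mark Rgt1 words, 3, 6 and 2 of them. The HXT4 stretch runs into AHT1, a gene on the other strand that begins 330 bases beyond HXT4. For HXT5 (chrVIII:296720-296919, minus strand) they mark 2 STRE words. The motif marked was set for each gene, and for HXT4 and HXT5 it is not the motif with the rarest count. The whole window of HXT5 held 4 Rgt1 words, more than the 3 of HXT4. An Rgt1 word of HXT5 (at -297) and a Mig1 word of HXT4 (at -250) lie unmarked in these stretches. The capitals therefore do not set HXT5 apart from the other transporters by motif.
HXT1: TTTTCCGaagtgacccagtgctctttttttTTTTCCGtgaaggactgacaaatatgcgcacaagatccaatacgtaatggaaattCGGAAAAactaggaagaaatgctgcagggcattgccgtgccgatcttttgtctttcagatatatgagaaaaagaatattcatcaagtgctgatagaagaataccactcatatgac
HXT3: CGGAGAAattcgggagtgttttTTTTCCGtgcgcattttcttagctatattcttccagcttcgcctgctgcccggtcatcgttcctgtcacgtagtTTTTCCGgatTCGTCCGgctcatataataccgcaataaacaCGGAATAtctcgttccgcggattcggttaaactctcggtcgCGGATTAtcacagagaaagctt
HXT4: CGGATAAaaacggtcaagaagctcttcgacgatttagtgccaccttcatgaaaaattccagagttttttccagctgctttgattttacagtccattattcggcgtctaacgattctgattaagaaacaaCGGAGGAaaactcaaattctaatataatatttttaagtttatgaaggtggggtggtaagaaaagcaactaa
HXT5: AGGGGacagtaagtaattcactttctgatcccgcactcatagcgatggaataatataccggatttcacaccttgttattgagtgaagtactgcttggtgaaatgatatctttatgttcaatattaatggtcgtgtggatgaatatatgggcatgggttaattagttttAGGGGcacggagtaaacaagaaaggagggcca

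**Figure D1:**
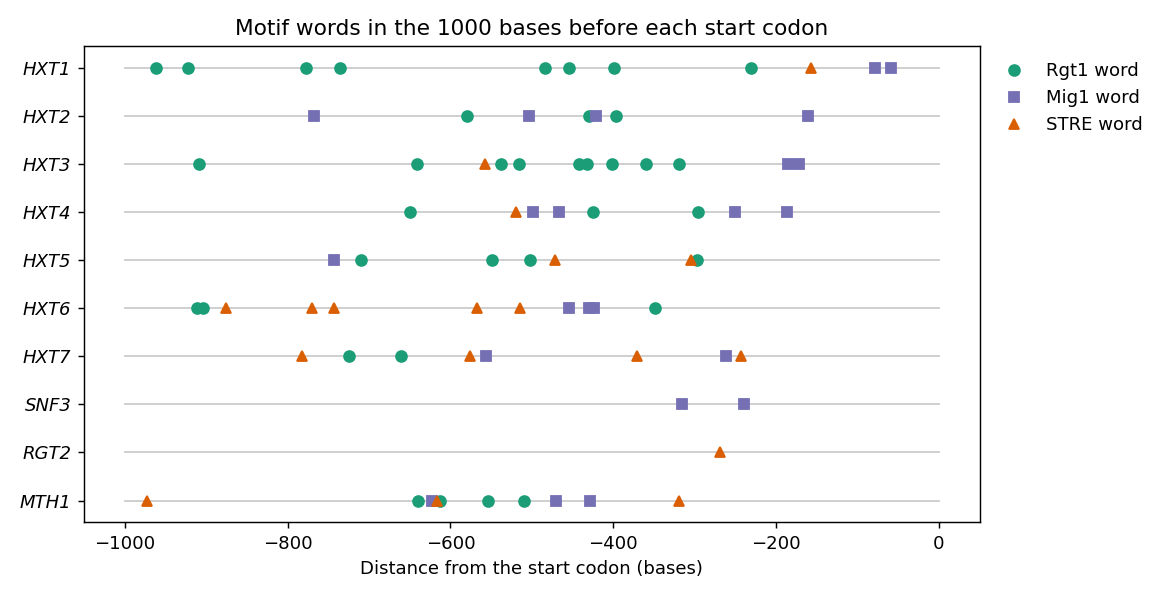
Motif words in the 1000 bases before the start codon of each of the 10 genes. The x axis is the distance from the start codon in bases, circles are Rgt1 words, squares Mig1 words and triangles STRE words. The rows of HXT1 and HXT3 carry 8 and 9 circles, and those of SNF3 and RGT2 carry none.

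Each of the 10 genes is a single coding exon that overlaps no other gene of the RefSeq annotation. HXT7 (YDR342C, chrIV:1154216-1155928), HXT6 (YDR343C, chrIV:1159608-1161320) and HXT3 (YDR345C, chrIV:1162957-1164660) lie in a row on the minus strand of chromosome IV, and HXT4 (YHR092C, chrVIII:287081-288811), HXT1 (YHR094C, chrVIII:290913-292625) and HXT5 (YHR096C, chrVIII:294669-296447) on the minus strand of chromosome VIII. HXT2 (YMR011W, chrXIII:288079-289704) stands alone. SNF3 (YDL194W, chrIV:111580-114234), RGT2 (YDL138W, chrIV:213351-215642) and MTH1 (YDR277C, chrIV:1014401-1015702) are spread over chromosome IV. HXT6 and HXT7 differ at 3 of 1713 coding bases and are identical over a run of 1631, whereas no other pair of the 7 transporters is above 81.9% identity. The 3 differences (T1632C, G1666A and T1677C, HXT6 base first, counted from the A of the start codon) fall within the 60 bases below, in capitals, which are the part of the coding sequence where a read can tell the pair apart. The HXT6 stretch is chrIV:1159644-1159703 and the HXT7 stretch chrIV:1154252-1154311, both on the minus strand.
HXT6: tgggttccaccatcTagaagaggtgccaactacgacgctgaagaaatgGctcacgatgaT
HXT7: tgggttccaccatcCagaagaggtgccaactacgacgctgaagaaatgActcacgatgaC
How the authors' counting shared reads between the pair is not known, so their separate values are uncertain and their sum is given beside them.

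The early table holds TPM and the late table FPKM, both levels per transcript length, and the read depth behind them is unknown. Column totals were close to equal in the early table and ran from 1510276 to 2145467 in the late one, with late control 2 the highest. Entries for ribosomal RNA took 0.757% to 1.18% of the early controls and 1.70%, 1.44% and 3.20% of early NaHS 1, 2 and 3, and 0.267%, 0.959% and 3.60% of late controls 1, 2 and 3 against 0.259% to 0.328% of the late NaHS libraries. Over all genes tested the early changes had a median of -0.24 on the log2 scale (616 higher and 1743 lower calls). Scaling by median ratios gave a median of -0.0098 (1067 and 1122), and scaling by upper quartiles gave 0.081 (1207 and 939). The late changes had a median of 0.05 (282 and 534), or 0.15 after scaling by upper quartiles (414 and 495).

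In early cultures with NaHS the starvation transporter HXT5 fell, and HXT3, HXT4, HXT6 and MTH1 rose. Fold changes below are differences of log2(value + 1) from limma, with p adjusted by Benjamini-Hochberg over the 6124 early genes tested, and a gene rose or fell when that p was below 0.05. Of the 10 genes 4 rose, against 10.1% of all genes tested, and 1 fell, against 28.5%, so 5 were called where 38.5% of all genes were. With HXT6 and HXT7 summed into 1 entry, 4 of 9 were called, 3 higher and 1 lower, and the summed pair was not among them. The values of the 3 NaHS libraries lay wholly above the 3 controls in the same 4 genes (16.8% of all genes) and wholly below in HXT5 (41.3%), against 58.2% in either direction. The median change of the 10 was 0.63. In these whole cultures a change in every cell and a change in the mix of cells cannot be told apart.

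HXT5 had 1505, 1497 and 1378 TPM in early controls 1, 2 and 3 and 283, 397 and 310 TPM in early NaHS 1, 2 and 3. Every NaHS library was far below every control, and each group was narrowly spread. The fall was -2.16 on the log2 scale (SE 0.146, limma adjusted p = 0.000367), and it passed under each of 16 alternatives run, at -2.30 to -1.80.

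HXT6 and HXT7, the high-affinity pair, were the most abundant of the 10 in both early groups. HXT6 had 1603, 1441 and 1805 TPM in the controls and 5852, 4284 and 2157 with NaHS. HXT7 had 2979, 3049 and 2893 TPM in the controls and 7540, 5971 and 2691 with NaHS. NaHS 1 and 2 stood far above the controls for both genes, while NaHS 3 lay just above the HXT6 controls and below the HXT7 controls. HXT6 rose by 1.23 on the log2 scale (SE 0.355, limma adjusted p = 0.0356), and HXT7 did not pass (0.73, 95% interval -0.15 to 1.62, adjusted p = 0.157). Their sum was 4582, 4489 and 4698 TPM against 13392, 10255 and 4848 TPM and did not pass either (0.93, adjusted p = 0.0838). The HXT6 call was lost without any 1 of controls 1, 2 and 3 (adjusted p = 0.0978, 0.109 and 0.0813) and without NaHS 1 (0.0704) or NaHS 2 (0.0896). HXT7 passed without NaHS 3 (1.17, adjusted p = 0.000513) and with upper-quartile scaling (1.09, adjusted p = 0.0391).

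The low-affinity HXT3 had 95.2, 88.6 and 84.9 TPM in the early controls and 179.9, 158 and 456 TPM with NaHS. HXT4 had 57.4, 56.1 and 55.96 TPM in the controls and 124, 103 and 193 TPM with NaHS. In both genes the controls were tight, every NaHS library stood above them and NaHS 3 was the highest. HXT3 rose by 1.38 (SE 0.391, limma adjusted p = 0.0336) but did not pass when control 1 (0.085), control 2 (0.0942) or control 3 (0.0985) was left out. Without NaHS 3 its change was 0.91, which passed (adjusted p = 0.000622). HXT4 rose by 1.24 (SE 0.231, adjusted p = 0.00796) and passed under each alternative, at 0.985 to 1.6.

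HXT2 and HXT1 did not pass early. HXT2, which works at low glucose, had 105, 141 and 86.2 TPM in the controls and 53.6, 53.1 and 192 TPM with NaHS, so NaHS 1 and 2 lay below every control and NaHS 3 above. Its change was -0.40 (95% interval -1.65 to 0.85, limma adjusted p = 0.568), and without NaHS 3 it was called lower (-1.01, adjusted p = 0.0086). HXT1, the carrier of high glucose, was the lowest of the 10 by group means, though above RGT2 in NaHS 3, at 4.35, 6.59 and 6.53 TPM against 6.82, 6.34 and 15.1 TPM (0.53, adjusted p = 0.246).

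MTH1, the corepressor, had 83.2, 78.3 and 87.0 TPM in the early controls and 185, 184 and 382 TPM with NaHS, again with NaHS 3 the highest. It rose by 1.5 (SE 0.291, limma adjusted p = 0.0095) and passed under each alternative, at 1.15 to 1.85. Of the sensors, SNF3 had 37.0, 32.8 and 31.7 TPM against 42.8, 43.1 and 29.9 TPM, and RGT2 had 23.0, 24.1 and 20.2 TPM against 20.3, 19.98 and 11.7 TPM. Neither passed (0.17 with a 95% interval of -0.24 to 0.58, and -0.39 with -0.93 to 0.15; adjusted p = 0.461 and 0.212). SNF3 was called higher without NaHS 3 (0.34, adjusted p = 0.0241) and with upper-quartile scaling (0.52, adjusted p = 0.0277), while RGT2 passed under no alternative.

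Early NaHS 3 was the highest NaHS library for HXT1, HXT2, HXT3, HXT4 and MTH1 and the lowest for HXT6, HXT7, SNF3 and RGT2. Against the mean of the controls on the log2 scale, NaHS 1, 2 and 3 stood at 1.0, 0.81 and 2.34 for HXT3 and at 1.34, 1.01 and -0.14 for HXT7. For HXT5 they stood together, at -2.36, -1.88 and -2.23. Without NaHS 3, 8 of the 10 genes were called, 6 higher and 2 lower. The same library had the highest ribosomal RNA share of the early libraries (3.20%), whose part in these values was not tested. The number of calls was 3 without any 1 of the 3 controls.

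**Figure D2:**
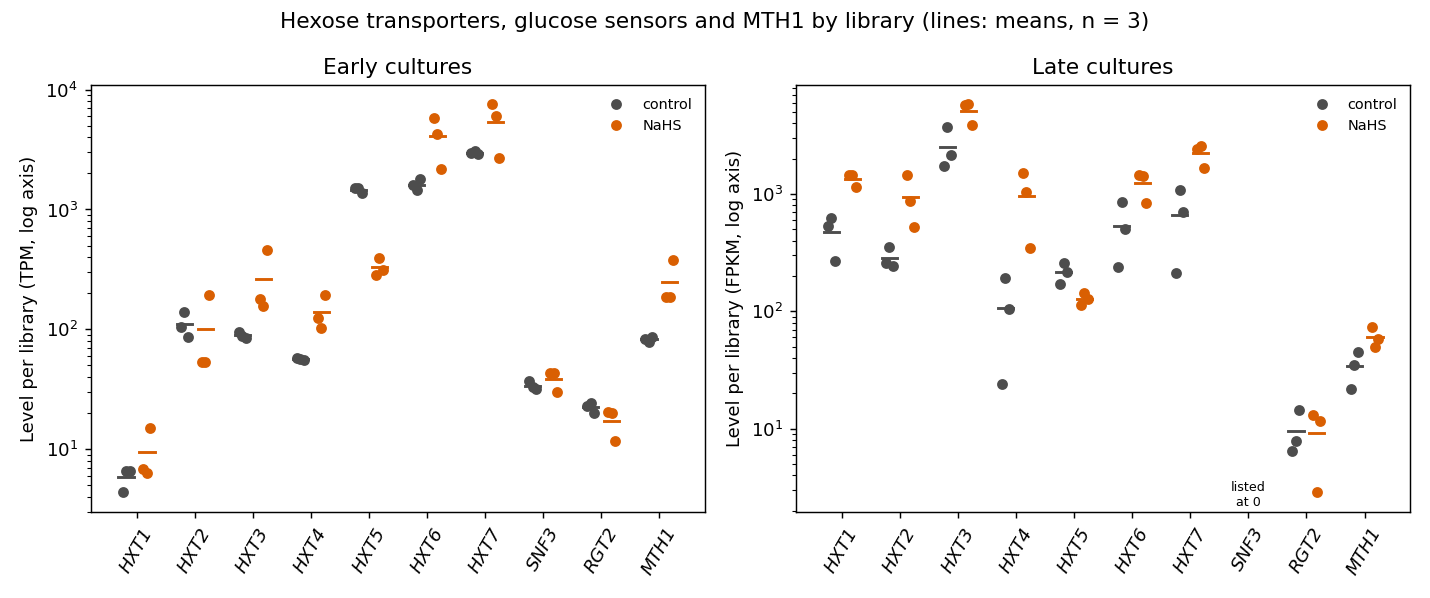
Level of each gene in each of the 12 libraries, in TPM for early and FPKM for late cultures, on log axes that cannot be compared with each other. Points are libraries, short lines are means of 3, grey is control and orange NaHS. Early HXT5 drops from a mean of 1460.0 to 329.9 TPM, and late HXT1, HXT2, HXT3, HXT4 and HXT7 sit wholly above their controls. SNF3 was listed at 0 in every late library and is not drawn there.

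**Figure D3:**
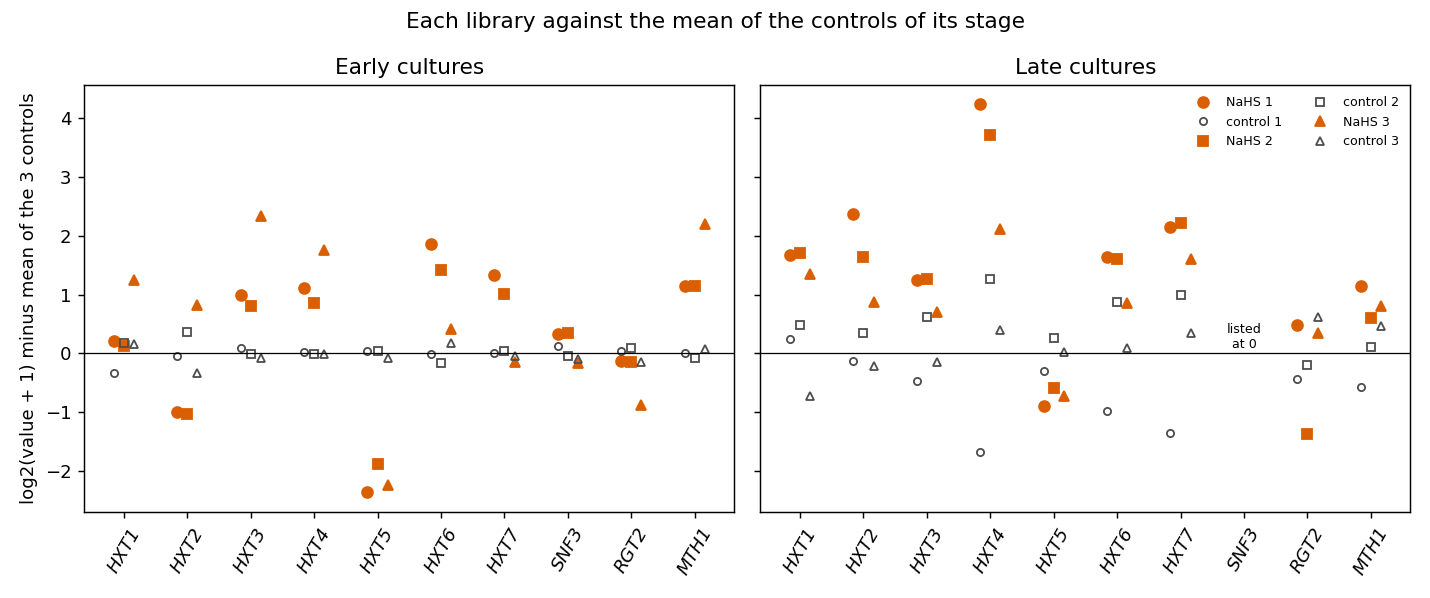
Each library against the mean of the 3 controls of its stage, as a difference of log2(value + 1). Filled orange symbols are NaHS and open grey symbols control libraries, with the shape giving the replicate number. Early NaHS 3 (triangles) stands apart from NaHS 1 and 2 for HXT2, HXT3, HXT6 and HXT7, and late control 1 (open circles) lies lowest for HXT4, at -1.67.

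In late cultures, the stage in the study's title, HXT1, HXT2 and HXT4 rose with NaHS, and HXT3, HXT6, HXT7 and MTH1 had positive changes that did not pass. Of the 9 genes that could be tested 3 rose, against 5.28% of the 5344 late genes tested, and none fell, against 9.99%, so 3 were called where 15.3% of all genes were. In limma without adjustment, 1 gene of the 9, HXT5, was lower at a p below 0.05 and is described further on. The NaHS values lay wholly above the controls in 6 of the 9 (18.8% of all genes) and wholly below in HXT5 (19.8%), against 38.6% in either direction. The median change of the 9 was 1.36, beside 0.05 over all genes.

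HXT4 had the largest change of the 9. Its level was 24.2, 192 and 104 FPKM in late controls 1, 2 and 3 and 1500.2, 1041 and 344 FPKM in late NaHS 1, 2 and 3. The controls themselves spread 7.95-fold, and the lowest NaHS library was above the highest control. It rose by 3.35 on the log2 scale (SE 0.844, limma adjusted p = 0.0421). The call was lost without control 3 (0.0955), NaHS 1 (0.126) or NaHS 2 (0.124) and with no filter on low values (0.0502).

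HXT1 had 532, 629 and 271 FPKM in the late controls and 1446, 1457 and 1149 FPKM with NaHS. HXT2 had 258, 354 and 242 FPKM in the controls and 1448, 875 and 518 FPKM with NaHS. Both genes were above every control in every NaHS library, with the NaHS libraries close together for HXT1 and spread 2.79-fold for HXT2. HXT1 rose by 1.58 (SE 0.329, limma adjusted p = 0.0232) but did not pass when NaHS 1 (0.0785), NaHS 2 (0.0817) or NaHS 3 (0.0554) was left out. HXT2 rose by 1.63 (SE 0.380, adjusted p = 0.0331) and lost it without control 1 (0.0641), control 3 (0.107), NaHS 1 (0.0692) or NaHS 2 (0.101).

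HXT3 was the most abundant transporter of late cultures, at 1728, 3693 and 2154 FPKM in the controls and 5682, 5788 and 3896 FPKM with NaHS. The groups did not overlap, though control 2 lay close below NaHS 3. Its change was 1.07 (95% interval 0.31 to 1.84, limma adjusted p = 0.0689), and it passed without control 2 (1.39, adjusted p = 0.0189), with upper-quartile scaling (0.0356) and with equal totals (0.025).

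HXT7 had 214, 1088 and 698 FPKM in the late controls and 2406, 2550 and 1672 FPKM with NaHS. HXT6 had 236, 855 and 501 FPKM in the controls and 1451, 1420 and 842 FPKM with NaHS. Control 1 was the lowest and control 2 the highest for both, and only HXT6 overlapped between the groups. The changes were 1.99 for HXT7 (adjusted p = 0.0624) and 1.36 for HXT6 (adjusted p = 0.103), and 1.73 for their sum (95% interval 0.48 to 2.98, limma adjusted p = 0.0706). HXT7 passed without control 1 (1.32, adjusted p = 0.0343) or control 2 (2.49, adjusted p = 0.032), and HXT6 without control 2 (1.80, adjusted p = 0.0393). HXT7 also passed with a mean of at least 10 (0.0451), with upper-quartile scaling (0.0438) and with equal totals (0.0326). Without control 1 the HXT6 change was 0.88 and did not pass.

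HXT5 was the 1 gene of HXT1 to HXT7 with a negative late change, at 172, 256 and 216 FPKM in the controls and 114, 142 and 127 FPKM with NaHS. The groups did not overlap. The change of -0.73 (95% interval -1.21 to -0.25) fell just short of the threshold (limma adjusted p = 0.0541) and passed without control 1 (-0.88, adjusted p = 0.0297), with median-ratio scaling (adjusted p = 0.0419), with a mean of at least 10 (0.0451) and with equal totals (0.0492).

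MTH1 had 21.6, 35.2 and 45.4 FPKM in the late controls and 73.3, 49.9 and 57.8 FPKM with NaHS, a change of 0.85 (95% interval 0.14 to 1.56) that did not pass (limma adjusted p = 0.103). RGT2 overlapped between the groups, with 6.43, 7.80 and 14.4 FPKM against 13.1, 2.87 and 11.7 FPKM (-0.18, 95% interval -1.48 to 1.12, adjusted p = 0.848). SNF3 was listed at 0 in all 6 late libraries, as were 777 of 6007 coding genes, 271 of which averaged 10 TPM or more in early cultures. No late change can be given for SNF3.

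Leaving out a library also leaves fewer for the test. Over all genes the late calls (282 higher and 534 lower) were 142 and 306 without NaHS 1, but 291 and 580 without control 1. The HXT1 change was 1.52, 1.52 and 1.69 without NaHS 1, 2 and 3, near its 1.58, although its call was lost each time. It moved further without control 2 (1.82) or control 3 (1.21) and was 1.7 without control 1, and there the call held. The number of late calls among the members moved when single libraries were left out. It was 0 without NaHS 1 and without NaHS 2, 1 without control 3, 2 without NaHS 3, 4 without control 1 and 6 without control 2. Late control 2 had the largest column total, and 6 genes were also called with the totals made equal, 5 higher and HXT5 lower. Late control 3 had the largest ribosomal RNA share (3.60%), whose part in these values was not tested.

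**Figure D4:**
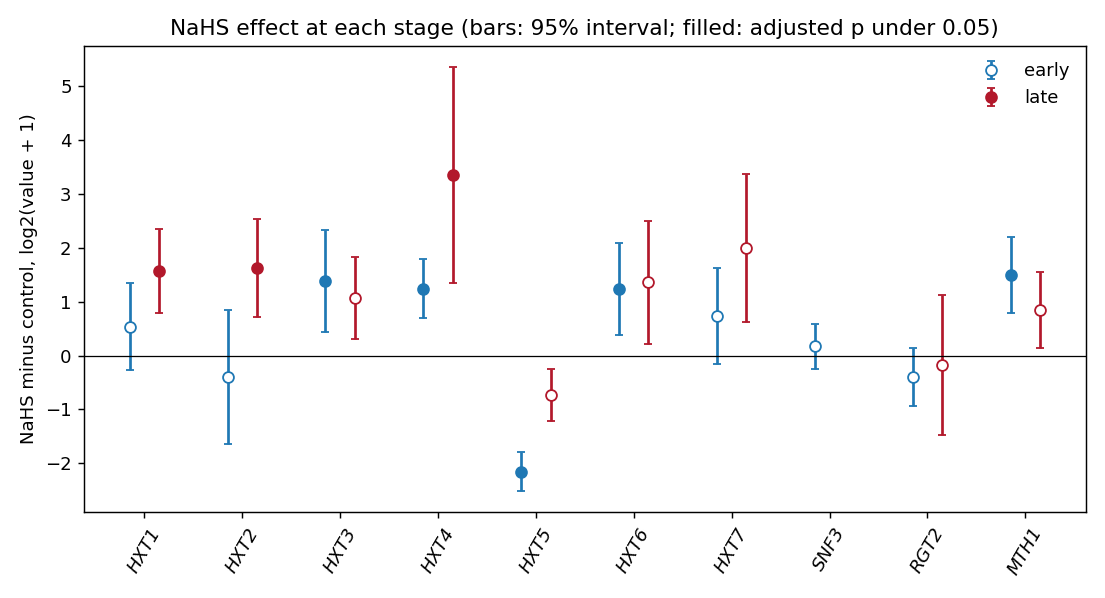
NaHS effect on each gene at each stage, as the limma difference of log2(value + 1), NaHS minus control, with 95% intervals (3 libraries in each group). Filled points passed an adjusted p of 0.05: HXT3, HXT4, HXT5, HXT6 and MTH1 early (blue), and HXT1, HXT2 and HXT4 late (red). SNF3 has no late point.

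The difference between the 2 effects was tested in 1 model of all 12 libraries, with p adjusted over 5165 genes, of which 15.2% were called higher (the late effect above the early one) and 7.55% lower, 22.8% in all. The split was 787 higher and 390 lower, and 488 and 572 after scaling by median ratios or 510 and 514 by upper quartiles. HXT5 was the 1 of 9 genes called: its late effect lay above its early effect by 1.43 on the log2 scale (SE 0.252, limma adjusted p = 0.00292). Its negative change was thus smaller late (-0.73) than early (-2.16). The median difference over all genes was 0.25. HXT2, at -0.40 early and 1.63 late, differed by 2.03 (95% interval 0.50 to 3.55, limma adjusted p = 0.0573). It passed without early NaHS 3 (2.64, adjusted p = 0.00544) or late NaHS 3 (2.40, adjusted p = 0.0391), and with a mean of at least 10 (adjusted p = 0.0453). HXT4 differed by 2.11 (95% interval -0.02 to 4.23, adjusted p = 0.137) and HXT1 by 1.05 (-0.05 to 2.14, adjusted p = 0.152). HXT1 passed without early NaHS 3 (1.41, adjusted p = 0.0421) and HXT4 without late control 2 (2.74, adjusted p = 0.0475). The intervals for HXT3 (-1.51 to 0.89), HXT6 (-1.30 to 1.57), HXT7 (-0.40 to 2.91), MTH1 (-1.63 to 0.34) and RGT2 (-1.21 to 1.63) all held 0.

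The makeup of the transporter mRNAs is a ratio within a library and does not move with the scaling of that library. In early controls HXT7 made up 47.1% ± 1.36 of the summed HXT1 to HXT7 level (SD, n = 3), HXT6 25.6% ± 2.84, HXT5 23.1% ± 1.12 and the other 4 between 0.0923% (HXT1) and 1.75% (HXT2). With early NaHS the HXT5 share was 2.02%, 3.62% and 5.16%, below every control (21.8% to 23.8%), and HXT6 and HXT7 together held 95.4%, 93.5% and 80.6%, above every control (71.5% to 74.5%). HXT3 made up 1.28%, 1.44% and 7.58% of the sum in early NaHS 1, 2 and 3 against 1.35% to 1.5% in the controls, so NaHS 3 alone stood above them. The sum itself was 6349, 6278 and 6309 TPM in the controls and 14039, 10972 and 6015 TPM with NaHS.

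In late controls HXT3 held 52.8% ± 1.65 of the sum, HXT7 12.9% ± 5.40, HXT1 10.7% ± 5.41, HXT6 10.5% ± 2.64, HXT2 6.32% ± 1.63, HXT5 4.74% ± 0.973 and HXT4 1.99% ± 1.07. With late NaHS the HXT3 share was 40.4%, 43.6% and 45.6%, below every control (51.5% to 54.6%), although its level was above every control. HXT4 took 10.7%, 7.85% and 4.02%, above every control (0.764% to 2.72%), and HXT5 took 0.812%, 1.07% and 1.49%, below every control (3.63% to 5.42%). HXT7 took 17.1%, 19.2% and 19.6%, just above the highest control (16.7%). HXT6 and HXT7 together took 27.5%, 29.9% and 29.4%, which overlapped the controls (14.2%, 27.5% and 28.6%). The separate share of HXT7 is thus uncertain, since how reads were shared between the pair is not known. The late sum was 3164, 7068 and 4186 FPKM in the controls and 14048, 13273 and 8548 FPKM with NaHS, a ratio of group means of 2.49, given with no test. HXT1 was 0.0923% of the sum in early controls and HXT3 1.42%, beside 10.7% and 52.8% in late controls; the tables were processed separately, so these shares are set side by side with no test.

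**Figure D5:**
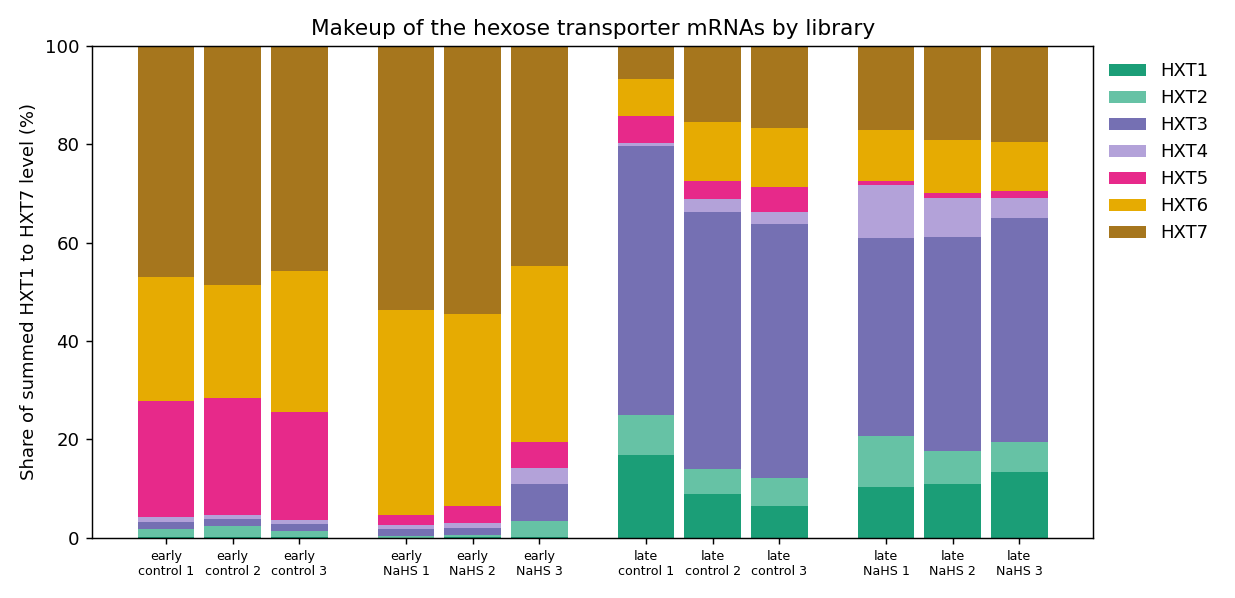
Share of each transporter in the summed HXT1 to HXT7 level of each library, in percent, stacked to 100. HXT6 and HXT7 fill 71.5% to 95.4% of the early bars, and HXT3 fills 40.4% to 54.6% of the late ones. The HXT5 segment is smaller in the NaHS bars of both stages.

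Within early controls the levels ran, from high to low, HXT7, HXT6, HXT5, HXT2, HXT3, MTH1, HXT4, SNF3, RGT2 and HXT1, and neighbours overlapped from HXT6 to HXT5 and from HXT2 through MTH1. Within late controls HXT3 came first and apart, followed by HXT7, HXT6, HXT1, HXT2, HXT5, HXT4 and MTH1, each overlapping the next, and then RGT2 apart. Among the coding genes of a library HXT7 ranked at the 99.3rd percentile in early controls (median) and HXT1 at the 29.6th. In late controls HXT3 ranked at the 97.8th and HXT1 at the 92.6th. The tables were processed separately, and 777 of the 6007 coding genes were at 0 in every late library. Of these, 271 averaged 10 TPM or more in early cultures, which bears on late ranks, so ranks are not compared between stages.

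Other genes of the glucose system were taken from 5 lists of 42 genes. Their counts are to be read against the shares of all genes called, 10.1% higher and 28.5% lower early and 5.28% higher and 9.99% lower late. Among 10 further hexose transporters, most of them little used in laboratory strains, none rose in either stage, and HXT9 fell in both: from 9.93 ± 1.6 to 3.44 ± 0.637 TPM early (-1.30, limma adjusted p = 0.00253) and from 6.70 ± 1.35 to 2.48 ± 0.521 FPKM late (-1.14, adjusted p = 0.019). The late HXT9 call was lost without NaHS 1 or NaHS 3 (limma adjusted p up to 0.0729), and HXT9 is 97.2% identical to HXT11. HXT11 was listed at 0 in every late library, beside means of 7.94 TPM in early controls and 5.22 TPM with early NaHS. How reads were shared between HXT9 and HXT11 is not known, so the late HXT9 values may not be of HXT9 alone. HXT17 fell early from 11.1 ± 1.15 to 5.14 ± 1.90 TPM (-1.02, adjusted p = 0.0213), but not without any 1 of the controls (up to 0.0744), and is 96.0% identical to HXT13. In all, 2 of 7 tested fell early, a share near the 28.5% of all genes, and 1 of 5 fell late, against 9.99%, with median changes of -0.57 and -0.27. HXT16 was listed at 0 in every library and differs from HXT15 at 2 of 1704 coding bases.

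Of the 7 genes of the relay to Rgt1, STD1, the paralog of MTH1, rose early from 2.12 ± 0.365 to 5.16 ± 1.30 TPM (0.96, limma adjusted p = 0.012) and late from 5.50 ± 0.882 to 9.86 ± 1.04 FPKM (0.74, adjusted p = 0.0421). The late STD1 call was lost without any 1 of the 6 libraries (adjusted p up to 0.132). TUP1, the corepressor that works with Cyc8, fell early from 55.1 ± 2.46 to 33.4 ± 8.73 TPM (-0.74, adjusted p = 0.0321), a call lost with both scalings, without any control and without NaHS 1 (up to 0.106). RGT1 itself did not pass (-0.09 early and 0.36 late, adjusted p = 0.532 and 0.178). The median of the 7 was -0.04 early and 0.36 late.

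Among 11 genes of the Snf1 and Mig1 branch, SNF4, the activating subunit of the Snf1 kinase, and MIG2, a repressor related to Mig1, fell early (-0.84 and -0.74, limma adjusted p = 0.00471 and 0.00679). GLC7, the phosphatase that counters Snf1, rose early (0.89, adjusted p = 0.0249) but not without any 1 of the controls or NaHS 1 (up to 0.0875). SUC2, the secreted invertase that is repressed by glucose, rose late from 4.49, 3.43 and 5.05 FPKM to 27.2, 19.5 and 14.2 FPKM (1.97, adjusted p = 0.0052) and passed under each alternative. Early SUC2 had 51.95, 54.6 and 49.8 TPM in the controls and 86.85, 79.6 and 38.0 TPM with NaHS. NaHS 1 and 2 stood above every control and NaHS 3 below, and the change did not pass (0.29, limma adjusted p = 0.479). The late SUC2 effect exceeded the early one by 1.67 (adjusted p = 0.0198, or 0.0512 with a pseudocount of 5). MIG3 fell late (-0.89, adjusted p = 0.0429), which leaving out control 1, control 3 or any NaHS library, or using no filter, ended (up to 0.124). In this branch 1 of 11 rose and 2 fell early, against 10.1% and 28.5% of all genes. Late, 1 of 10 rose and 1 fell, against 5.28% and 9.99%, with medians of -0.46 and 0.24.

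Of 4 sugar kinases, which phosphorylate the sugar once inside, none passed early and HXK2, the main hexokinase on glucose, rose late from 441 ± 58.8 to 848 ± 147 FPKM (0.94, limma adjusted p = 0.0234). That call was lost without control 3, NaHS 1 or NaHS 2 (adjusted p up to 0.0804). Of 10 genes of the cAMP branch, PDE1, a cAMP phosphodiesterase, and TPK3 rose early (0.72 and 0.48, adjusted p = 0.0032 and 0.0498), and TPK2 fell (-0.95, adjusted p = 0.00169). TPK2 and TPK3 encode catalytic subunits of protein kinase A. Leaving out any control, NaHS 1 or NaHS 2 or using no filter on low values ended the TPK3 call (up to 0.159). Late, none of the 7 cAMP genes tested passed (limma; TPK2 had an unadjusted p = 0.0109). For the difference between stages, 15.2% of all genes were called higher and 7.55% lower. Besides SUC2, TUP1 (1.04, limma adjusted p = 0.0148), SNF4 (1.18, adjusted p = 0.00356) and HXK2 (1.09, adjusted p = 0.018) were called higher. MIG3 was called lower (-1.02, adjusted p = 0.0185). In the Snf1 and Mig1 branch 3 of 10 were called higher and 1 lower. The HXK2 call was lost with median-ratio scaling and with the replicate block (up to 0.0649), and the MIG3 call with the block (0.0542). At their smallest over the alternatives, the early changes were -0.82 for HXT9, 0.51 for STD1, -0.39 for TUP1, -0.38 for MIG2, -0.5 for SNF4, -0.59 for TPK2 and 0.28 for TPK3, and the late change of HXT9 was -0.64.

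Pattern likeness was measured by Pearson's r over the 12 libraries of log2(value + 1) centred within each stage, which is a description, since the libraries share group, stage and scaling. Among the 10 genes, HXT6 and HXT7 had r = 0.94, HXT3 and MTH1 r = 0.91, HXT4 and HXT7 r = 0.88, and HXT5 and MTH1 r = -0.83. Among 3175 other genes averaging 10 or more in each table, with no library at 0, HXT5 was most like AIP1, an actin regulator (r = 0.987), HXT7 like STP3 (r = 0.979), HXT3 like UBC13, a ubiquitin-conjugating enzyme (r = 0.972), and HXT4 like CYC3, which attaches heme to cytochrome c (r = 0.967). The nearest genes were YNL134C for HXT6 (r = 0.963), LGE1 for MTH1 (r = 0.952), PEF1 for RGT2 (r = 0.937), ZPS1 for HXT1 (r = 0.936) and AIM17 for HXT2 (r = 0.869). The second-highest r lay close behind, from 0.951 for MTH1 and 0.983 for HXT5 to 0.839 for HXT2, where the gap was widest. A nearest gene is therefore the top of a close ranking and not a particular partner.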

How the data were processed

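The 12 libraries (4 groups of 3) were TruSeq RNA libraries, sequenced as paired ends, trimmed by SeqPrep and Sickle and aligned by TopHat, per the labels' protocols. The submitters' processing notes name Bowtie 0.12.2 and the R64 build. How reads were assigned to genes, including strand, is not stated there. The deposited early table holds TPM, a unit read from its values, whose library sums ran from 998109 to 998610. The deposited late table holds FPKM per the file headers. The low values of neither table fell on a step that would give whole reads, so depth is unknown and no counting interval is given.

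Entries without a gene name (319 early, 429 late) were left out. Values were taken as log2(value + 1), genes with a mean of at least 1 were tested, and each stage was fitted with limma 3.58.1 in R 4.3.3 (moderated test with trend, 2-sided, NaHS minus control), with Benjamini-Hochberg adjustment over all genes tested and a threshold of 0.05. The difference between stages was the interaction term over all 12 libraries. With 3 libraries a side, exact permutation reaches 0.1 at the lowest and was not used. Same-numbered control and NaHS libraries did not deviate together. Identities come from global alignments with Biopython 1.88, and motifs from a search for exact words, both on the RefSeq R64 sequence.

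The members and lists were chosen with earlier results of these data known. All 10 members were described. Of each list at most 2 risen and 2 fallen genes of largest change were named, apart from 1 result that is not reported here, with RGT1 and the near-identical HXT11, HXT15 and HXT16 added after their values were seen. Alternatives were pseudocounts of 0.1 and 5, no filter or a mean of at least 10, a minimum change of 1, median-ratio and upper-quartile scaling, HXT6 and HXT7 summed, the replicate number as a block, and each library left out, where the fit pools the spread over all genes and the remaining libraries. Equal column totals were added after the data were seen.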

Additional observations from a re-analysis of the deposited data

Results flagged for a closer look

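HXT5 was singled out because its NaHS effects in early and late cultures differed by the test of the difference itself. It went from 1460.0 ± 71.3 to 329.9 ± 59.4 TPM early (-2.16 on the log2 scale) and from 215 ± 42.4 to 128 ± 13.9 FPKM late (-0.73; SD, n = 3 in each group). The late effect lay above the early one by 1.43 (SE 0.252, limma adjusted p = 0.00292), so the negative change was smaller late. All 6 NaHS libraries were below the controls of their stage, and the difference passed under each of 22 alternatives, at 1.15 to 1.57 (adjusted p between 0.000693 and 0.0105).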

How the results depend on the processing

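The early count of 5 called genes was 3 to 8 with 1 library left out, and within 1.5 times of 5 under the other alternatives. The late count of 3 was 0 to 6 with 1 library left out, 5 with a mean of at least 10, 5 with upper-quartile scaling, 6 with equal totals and 1 with the replicate block. The difference count of 1 was 1 to 3 with 1 library left out and 2 with a mean of at least 10. The replicate numbers did not pair the libraries: same-numbered libraries had correlations of deviations of -0.035, -0.011 and -0.028 early and -0.113, 0.086 and 0.041 late. With the replicate block the early count was 4 and the difference count 1. Among the members, the calls it ended were early HXT6 (limma adjusted p = 0.0574) and late HXT2 (0.0542) and HXT4 (0.0892). Signs turned only in changes that did not pass. The late RGT2 change was -0.51 to 0.42 over the libraries left out and positive without control 3 (0.13) or NaHS 2 (0.42). The difference for HXT3 was -0.595 to 0.17 over the libraries left out, positive without early NaHS 3 (0.17) or late control 2 (0.00205). That for HXT6 was -0.15 under scaling by median ratios and -0.115 by upper quartiles, and -0.36 to 0.57 over the libraries left out. That for RGT2 was -0.052 under scaling by median ratios and -0.033 by upper quartiles, and -0.13 to 0.805 over the libraries left out. Of single-gene fits, 144 early, 115 late and 178 for the difference kept sign and side of the threshold, 10, 13 and 0 lost the call, and 5, 13 and 5 gained one. Over all genes, the early calls (616 higher, 1743 lower) were 160 and 775 with a minimum change of 1, and 324 and 1099, 296 and 1093, and 329 and 1160 without controls 1, 2 and 3. The late calls (282 and 534) were 139 and 348 with the replicate block, 123 and 290 without control 3, and 142 and 306, 134 and 314, and 128 and 318 without NaHS 1, 2 and 3. HXT1 (early) and RGT2 (late) fell below the mean of 10 and gave no value there. Depth is unknown, so no limit from counting can be given, and a listed 0 may be a failed estimate.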
